A study of Mus musculus with 76 samples.

Results

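F13a1, F10, Plau and Pf4 encode proteins known from clotting, clot dissolution and platelets, and their transcripts were followed here in single macrophages from the atrioventricular (AV) node of mice, which relays each beat of the atria to the ventricles. They are the rows F13A1, F10, PLAU and PF4 of the deposited table, 4 of its 9235 genes, chosen by name with earlier results on the same cells known, so their levels are given as a description without a test. The cells came from microdissected AV nodes of wild-type C57BL/6J mice that received no other treatment in the labels, and the ages and the number of mice are not given in the sources used here. The sort kept living cells with little surface Ly6G, B220, NK1.1, CD90.2, Ter119, CD103 and CD49b, with much F4/80, CD11b and CD45, and with low or intermediate Ly6C, and a Fluidigm C1 chip took up the cells one at a time for whole-transcript reading. There is 1 group and no animal is named, so all cells count as 1 sample and intervals cover counting error only.

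Clotting ends when thrombin turns fibrinogen into fibrin. Factor X, encoded by F10, is a zymogen made mainly in the liver whose active form cuts prothrombin to thrombin. Factor XIII is a transglutaminase that ties fibrin strands to each other, and F13a1 encodes its catalytic A subunit, which monocytes, macrophages and megakaryocytes are known to make. Plau encodes urokinase, a protease that turns plasminogen into plasmin, the enzyme that dissolves fibrin, and it acts at the cell surface on its receptor, encoded by Plaur. Pf4 encodes platelet factor 4 (CXCL4), a heparin-binding chemokine stored in platelet granules. In the heart, macrophages with Lyve1, Timd4 and Folr2 are known as long-lived resident cells, and those with Ccr2 as cells replenished by blood monocytes.

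The table held 76 libraries with an estimated 259558 to 6291287 reads and 2324 to 4382 genes above 0. Transcriptomes 13 and 19 correlated at a Pearson r of 0.978, against at most 0.421 in 2849 other pairs, and were averaged, which left 75 cells. Each of the 10 macrophage markers looked up was above 0 in 50% of cells or more, and 8 of them were at 10 CPM in that share. Of 19 genes of platelets or megakaryocytes, 1 had values: Rasgrp2, a signalling protein of platelets that other blood cells also make, was above 0 in 6 cells, and the others, among them Ppbp, Itga2b and Gp9, are not analysed here.

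The promoters of the members are shown because F13a1 and Pf4 were high in the same ranges of cells and F10 in another. RefSeq windows of 250 bases before to 50 bases after the transcription start (GRCm38.p6, written 5′ to 3′ on the strand of the gene) were found for 3 of the 4 members, with 2 starts for F13a1. Capitals mark GAGGAA or its reverse complement TTCCTC, the core of a PU box, the site of the myeloid transcription factor PU.1. F13a1 lies on the minus strand of chromosome 13, with the windows chr13:37049164-37049463 and chr13:37050195-37050494, Pf4 on the plus strand at chr5:90772185-90772484 and F10 on the plus strand at chr8:13037058-13037357.
F13a1, first window: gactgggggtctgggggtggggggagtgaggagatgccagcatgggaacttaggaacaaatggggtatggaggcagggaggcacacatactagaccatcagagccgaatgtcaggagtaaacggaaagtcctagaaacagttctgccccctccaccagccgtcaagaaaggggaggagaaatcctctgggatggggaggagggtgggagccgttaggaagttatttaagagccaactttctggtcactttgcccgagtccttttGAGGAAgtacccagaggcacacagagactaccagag
F13a1, second window: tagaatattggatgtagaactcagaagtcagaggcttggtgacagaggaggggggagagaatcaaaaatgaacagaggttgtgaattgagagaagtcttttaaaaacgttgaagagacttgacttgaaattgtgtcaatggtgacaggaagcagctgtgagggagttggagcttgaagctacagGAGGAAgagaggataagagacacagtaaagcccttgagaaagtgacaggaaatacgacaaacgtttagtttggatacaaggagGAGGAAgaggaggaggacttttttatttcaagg
Pf4: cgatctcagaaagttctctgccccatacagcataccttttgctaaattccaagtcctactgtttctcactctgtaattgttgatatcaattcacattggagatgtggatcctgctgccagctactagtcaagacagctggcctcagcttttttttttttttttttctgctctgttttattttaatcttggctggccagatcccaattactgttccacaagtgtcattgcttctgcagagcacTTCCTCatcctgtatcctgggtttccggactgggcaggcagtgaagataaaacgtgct
F10: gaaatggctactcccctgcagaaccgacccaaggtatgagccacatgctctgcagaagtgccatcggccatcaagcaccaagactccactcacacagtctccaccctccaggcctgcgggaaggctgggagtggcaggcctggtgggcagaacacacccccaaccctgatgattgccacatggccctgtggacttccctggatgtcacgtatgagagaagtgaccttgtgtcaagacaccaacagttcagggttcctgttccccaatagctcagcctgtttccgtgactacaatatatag
The core stood 1 and 2 times in the windows of F13a1, 1 time in that of Pf4 and 0 times in that of F10, and 28.3% of all 32851 promoter windows of the same length held it. AGATAA or its reverse complement, the core bound by GATA factors, stood 1 time in the Pf4 window and 0 times in the others, against 11.2% of all windows. TGANTCA, the core bound by AP-1, was in none of the 4 windows and in 7.81% of all windows. A match of letters is a description and not a bound site.

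The cells were placed in 4 ranges by 3 marker transcripts at 100 CPM (read counts scaled to a fixed total per cell). The 23 cells with Ccr2, a chemokine receptor of monocyte-derived macrophages, at 100 CPM or more formed the Ccr2 range. Cells with less Ccr2 and with Lyve1, a hyaluronan receptor of resident macrophages, at 100 CPM or more were divided by H2-Aa, a chain of MHC class II, into 18 cells with Lyve1 only and 20 cells with Lyve1 and H2-Aa. The remaining 14 cells had neither Ccr2 nor Lyve1, and 13 of them had H2-Aa. These are ranges of continuous levels and not cell types: 8 cells lay between 50 and 200 CPM of Ccr2, 9 of Lyve1 and 2 of H2-Aa. In the Ccr2 range 20 cells had H2-Aa and 7 had Lyve1 at 100 CPM or more. Cells of the Ccr2 range had the most genes above 0, with a median of 3430 against 3093 with Lyve1 only, 3206 with Lyve1 and H2-Aa and 2835 with neither. Divided at the median of 3179 genes, 37 cells had fewer and 38 had more genes detected, and the latter held 18 of the 23 cells of the Ccr2 range and 1 of the 14 with neither marker.

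F13a1 and Pf4 were abundant in most of the macrophages, while F10 and Plau were carried by a few cells each. F13a1 averaged 6120 ± 5041 CPM (SD, n = 75 cells), with a lowest value of 3.1, a median of 4934.9 and a highest value of 18819.1 CPM. It was above 0 in 75 of 75 cells, at 100 CPM in 66 and at 1000 CPM in 61. Pf4 averaged 1882 ± 1554 CPM, with a median of 1657.3 and a highest value of 5894.8 CPM. It was above 0 in 74 cells, at 100 CPM in 64 and at 1000 CPM in 49. Both genes were thus spread over the cells, and the 6 highest cells held 23.2% of the summed CPM of F13a1 and 21.9% of that of Pf4. For Plau, the mean of 48.6 ± 186 CPM stood against a median of 0.4 CPM, and the 6 highest cells held 93.8% of its sum. The mean of F10 was 26.2 ± 121 CPM, and the 4 highest cells held 99.9% of its sum.

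Set per length of the longest coding transcript, Pf4 stood above F13a1. The mean level of Pf4, with a transcript of 588 bases, was 3201 ± 2643 CPM per kilobase, and that of F13a1, with 3952 bases, was 1549 ± 1276 CPM per kilobase. The order held in 54 of the 75 cells, and the means differed by less than the SD of Pf4 over cells. Plau came to 20.8 ± 79.6 and F10 to 10.468 ± 48.2 CPM per kilobase, and neither of these means exceeded its own SD.

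F13a1 was highest in the cells with Lyve1. In the 18 cells with Lyve1 only it averaged 10542 ± 5710 CPM, from 17.3 to 18819.1 with a median of 10101.4 CPM. In the 20 cells with Lyve1 and H2-Aa it averaged 7862 ± 3545 CPM, from 2945.1 to 17888.8 with a median of 7608.9 CPM. The Ccr2 range stood lower, at 3440 ± 3154 CPM, from 13.6 to 11369.5 with a median of 2562.5 CPM. Cells with neither marker had the lowest mean, 2347 ± 2655 CPM, from 3.1 to 8280.9 with a median of 1634.2 CPM. The order of the means was Lyve1 only, Lyve1 and H2-Aa, Ccr2, neither, and neighbours in it differed by less than their SDs except for Lyve1 and H2-Aa against Ccr2, whose means lay further apart than either SD. F13a1 reached 1000 CPM in 17 of 18, 20 of 20, 16 of 23 and 8 of 14 cells in that order, so all 4 ranges overlapped and most cells with Ccr2 also held the transcript.

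The ratio of mean CPM between cells with Lyve1 only and the Ccr2 range was 3.06 for F13a1, and a ratio of at least 2 in that direction was found for 30.7% of all genes and 23.3% of genes averaging 100 CPM or more. Against cells with neither marker the ratio was 4.49, where 42.3% of all genes and 28.4% of the abundant ones reached 2, and it was 1.92 with the markers read at 1000 CPM. Cells with Lyve1 and H2-Aa had 2.29 times the mean of the Ccr2 range, where 29.7% of all genes and 21.4% of the abundant ones reached 2. Between the 2 ranges with Lyve1 the ratio was 1.34, under the 2-fold mark that 31.8% of all genes and 20.3% of the abundant ones reached, and in the 38 cells with more genes detected it was 0.978, the other direction. With the 3 markers read at 10 CPM, the ratios of both Lyve1 ranges over the Ccr2 range were 1.91 and 1.46, below the 2-fold mark.

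Pf4 had a similar division of cells with and without Lyve1 and a sharper lower end. It averaged 2720 ± 1509 CPM in cells with Lyve1 only, from 470.8 to 5687.3 with a median of 2403.65 CPM. In cells with Lyve1 and H2-Aa it averaged 2483 ± 1628 CPM, from 182.7 to 5894.8 with a median of 2382.7 CPM. With neither marker the mean was 1256 ± 898 CPM, from 1.7 to 3022.3 with a median of 1046.35 CPM. In the Ccr2 range it was 1084 ± 1336 CPM, from 0 to 4136.7 with a median of 481.5 CPM. All 38 cells of the 2 Lyve1 ranges and 13 of the 14 cells with neither marker reached 100 CPM of Pf4, against 13 of the 23 cells of the Ccr2 range. The means of the 2 Lyve1 ranges differed by less than their SDs, as did those of the other pair, and the order of the means differed from that of F13a1, with the Ccr2 range lowest.

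For Pf4 the ratio of means was 2.51 between cells with Lyve1 only and the Ccr2 range, 2.29 between cells with Lyve1 and H2-Aa and the Ccr2 range, and 2.16 between cells with Lyve1 only and those with neither marker. The shares of genes at a ratio of at least 2 are those given for F13a1. The second ratio was 1.79 with the markers read at 10 CPM and 1.72 at 1000 CPM. The third was 1.32 at 1000 CPM, and 1.52 among the 37 cells that had fewer genes. Between the 2 ranges with Lyve1 the ratio was 1.10, and 0.817 among those 37 cells, the other direction. The Ccr2 range was itself divided by Lyve1. Its 7 cells with Lyve1 averaged 2295 ± 1279 CPM of Pf4, close to the Lyve1 ranges, and its 16 cells without Lyve1 averaged 554 ± 989 CPM with a median of 41.6 CPM. Against these 16 cells alone, the ratios for Pf4 were 4.91 and 4.48, and those for F13a1 were 4.27 and 3.19. This lower group was formed after seeing the data by leaving out cells with Lyve1. The share of all genes was not computed for it. F13a1 averaged 5662 ± 4177 CPM in the 7 cells and 2468 ± 2073 CPM in the 16.

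**Figure D1:**
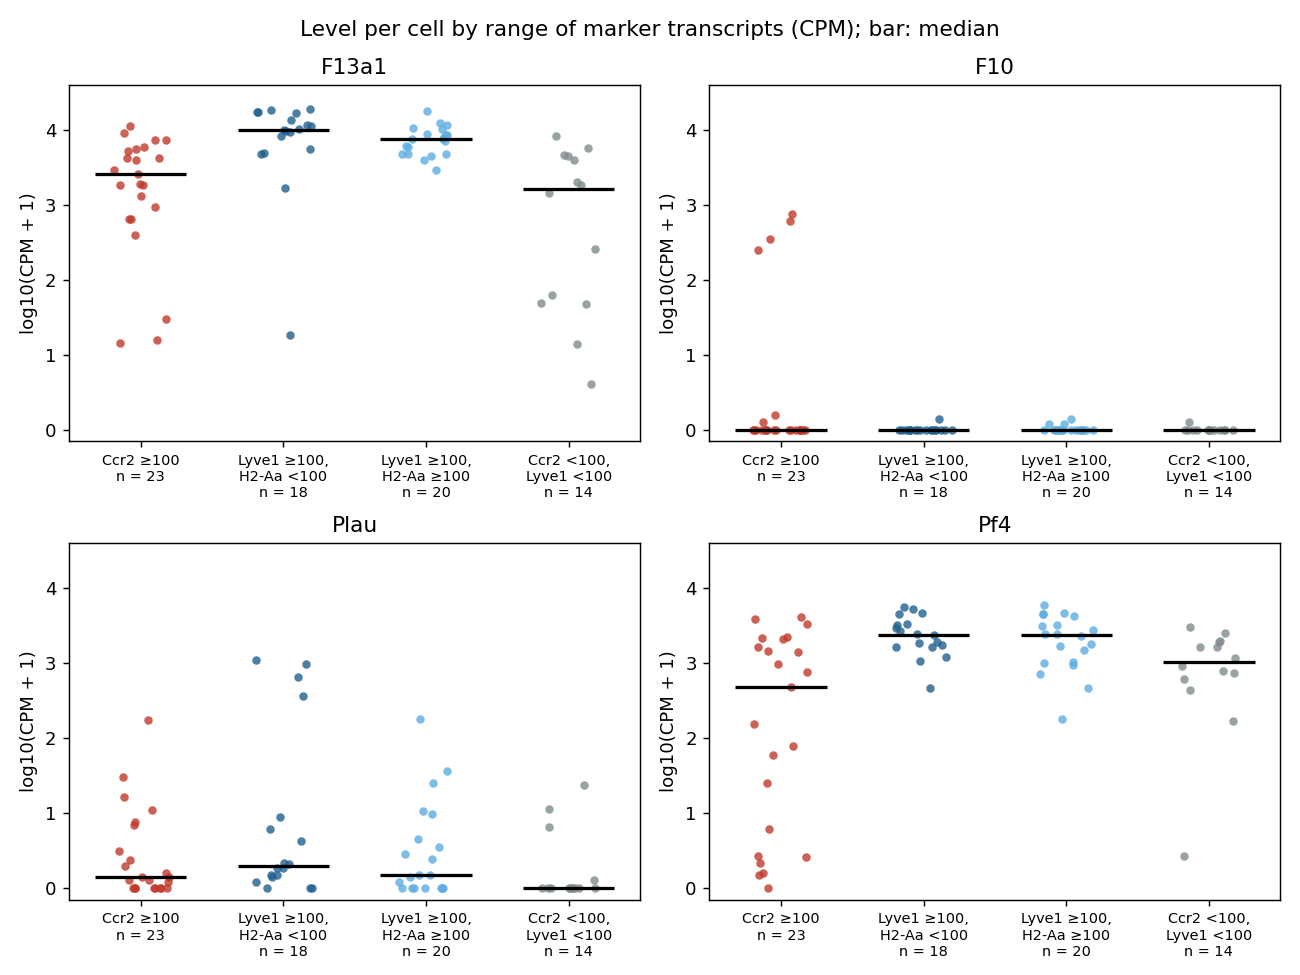
Level of F13a1, F10, Plau and Pf4 in each of 75 cells, as log10(CPM + 1) on the y axis, by range of the marker transcripts on the x axis; each point is a cell and each bar a median. F13a1 and Pf4 are high in nearly all cells of the 2 Lyve1 ranges and spread widely in the Ccr2 range, while the 4 cells with F10 at 100 CPM stand in the Ccr2 range alone and 4 of the 6 with Plau in the Lyve1-only range.

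Across cells, F13a1 and Pf4 went with a score over 16 tissue-resident genes, such as Folr2, a folate receptor, and Mrc1, the mannose receptor. Spearman's rho with the score was 0.77 for F13a1 and 0.69 for Pf4, while Plau stood at 0.23 and F10 at -0.24 (n = 75 cells that share library chemistry, depth and the CPM total). A rho of at least 0.3 with this score was reached by 2.59% of 8351 genes, a background from which nothing is read here because the members were chosen with such values known. The score holds Lyve1, one of the markers behind the ranges, so both views share a gene. The correlation with the number of genes above 0 was 0.02 for F13a1 and -0.04 for Pf4. Against the MHC class II score both genes ran the other way, at -0.44 for F13a1 and -0.52 for Pf4, and 1.71% of genes had a rho of -0.3 or lower. With the monocyte-derived score they stood at -0.34 and -0.46, against 1.13% of genes at -0.3 or lower. With all values kept at full depth, neither F10 nor Plau reached 0.3 in size with any of the 5 scores. In the same setting no member reached 0.3 with the MHC class II score, as 1.51% of genes did. None was at -0.3 or lower with the immediate early and heat shock score, as 0.647% of genes were. For F10 this depended on the lowest values. With values below 10 CPM set to 0, which left 4 cells above 0, F10 had a rho of 0.351 with the monocyte-derived and -0.320 with the tissue-resident score. After thinning to 250000 reads these were 0.340 and -0.331, and the rho with the MHC class II score was 0.313.

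Within single ranges the rho of Pf4 with the tissue-resident score was highest in the Ccr2 range, at 0.87 over 23 cells, and was 0.71 over the 14 cells with neither marker. In the 18 cells with Lyve1 only it was 0.00 and in the 20 with Lyve1 and H2-Aa 0.28. For F13a1 the values were 0.62, 0.50, 0.38 and 0.25 in the same order. Of 5 cardiomyocyte genes 4 had values, and 2 of these had a rho of at least 0.3 with the same score, against the 2.59% of all genes: Myh6, the alpha myosin heavy chain (0.43), and Ttn, the sarcomere protein titin (0.38). The troponins Tnni3 and Tnnt2 stood at 0.17 and 0.07. The summed level of the 4 genes had a median of 0 CPM and a range of 0 to 379.7 CPM in the Ccr2 range, a median of 3.1 and a highest value of 821.8 CPM with Lyve1 only, 1.3 and 434.5 CPM with Lyve1 and H2-Aa, and 0 and 482.4 CPM with neither. Their part in the result was not tested.

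**Figure D2:**
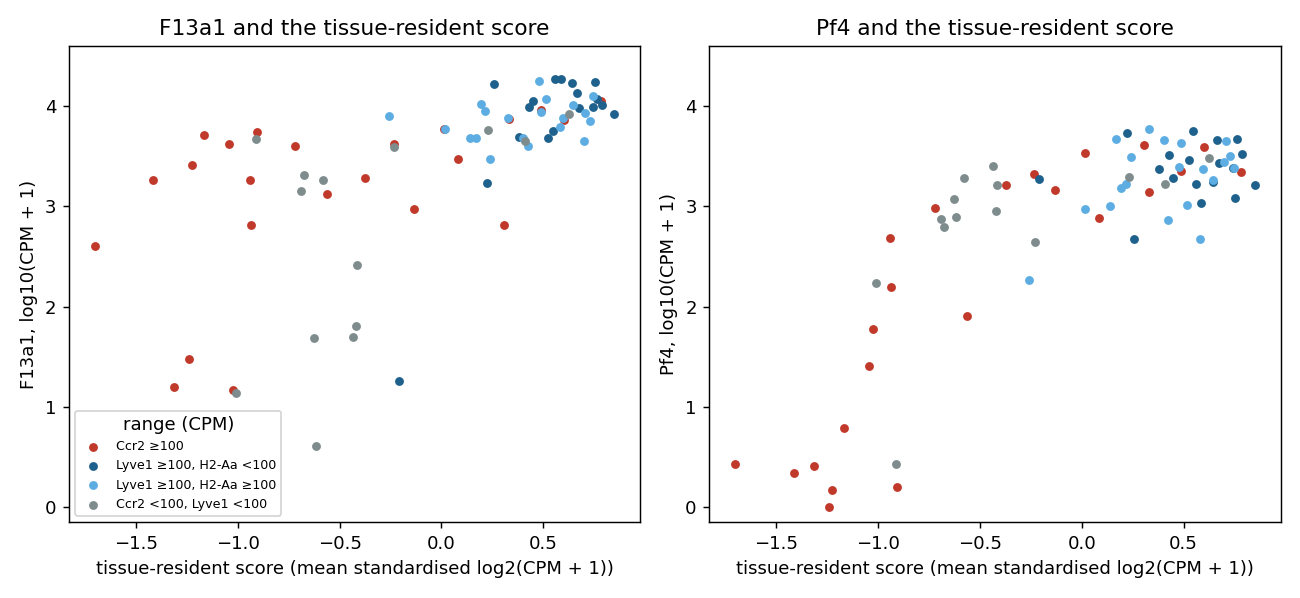
F13a1 (left) and Pf4 (right), as log10(CPM + 1) on the y axis, against the tissue-resident score on the x axis, the mean of standardised log2(CPM + 1) over 16 genes; each point is 1 of 75 cells, coloured by range. Spearman's coefficient is 0.77 for F13a1 and 0.69 for Pf4, and the cells with the lowest scores hold Pf4 near 0 while several of them keep F13a1 above 1000 CPM.

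The genes whose pattern over cells was most like each member were ranked by Spearman's rho among 4736 genes above 0 in at least 20 cells. For F13a1 they were Lyve1 (rho 0.62), Ednrb, an endothelin receptor (0.61), Folr2 (0.59), Ltc4s, the synthase of leukotriene C4 (0.58), and Timd4, a receptor for phosphatidylserine (0.56). For Pf4 they were Folr2 (0.62), Dab2, an adaptor of endocytosis (0.60), Nrp1, the receptor neuropilin (0.59), the lysosomal protease Ctsb (0.58) and Cbr2, a carbonyl reductase (0.58). Folr2 stood in both. The lowest rho was with MHC class II genes for both, Cd74 for F13a1 (-0.51) and H2-Ab1 for Pf4 (-0.55). Ranked by Pearson's r, 1 of the 5 genes for F13a1 and 0 of the 5 for Pf4 were named again.

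Because F13a1 was at 100 CPM in 66 of 75 cells and Pf4 in 64, most cells held both. Their levels were only loosely related. Both were at 100 CPM in 58 of 75 cells, F13a1 alone in 8, Pf4 alone in 6 and neither in 3, and rho between them was 0.40. Within ranges the rho was 0.44 in the Ccr2 range, -0.49 with Lyve1 only, -0.08 with Lyve1 and H2-Aa and 0.22 with neither, over 23, 18, 20 and 14 cells. The cells that held F13a1 without Pf4 lay mostly in the Ccr2 range, and those with the reverse mostly in the range with neither marker. Of the 8 cells with F13a1 but under 100 CPM of Pf4, 7 were in the Ccr2 range and 1 had neither marker. Of the 6 cells with Pf4 but under 100 CPM of F13a1, 5 had neither marker and 1 had Lyve1 only. The 3 cells low in both were in the Ccr2 range. Among the 11 cells under 100 CPM of Pf4, 8 were in the group with more genes detected, against 3 of the 9 cells under 100 CPM of F13a1, and the part of depth in this was not tested. Cells with Pf4 at 100 CPM were 85.3% of all cells, so most of any few cells lie among them. Rasgrp2, the platelet-list gene with values, was above 0 in 6 of the 64 cells with Pf4 at 100 CPM and in none of the 11 others, and its rho with Pf4 was 0.12. Its level had a median of 0 CPM in every range and a highest value of 536.3 CPM in the Ccr2 range, 260.3 with Lyve1 only, 4.8 with Lyve1 and H2-Aa and 0 with neither, and its part in the level of Pf4 was not tested.

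**Figure D3:**
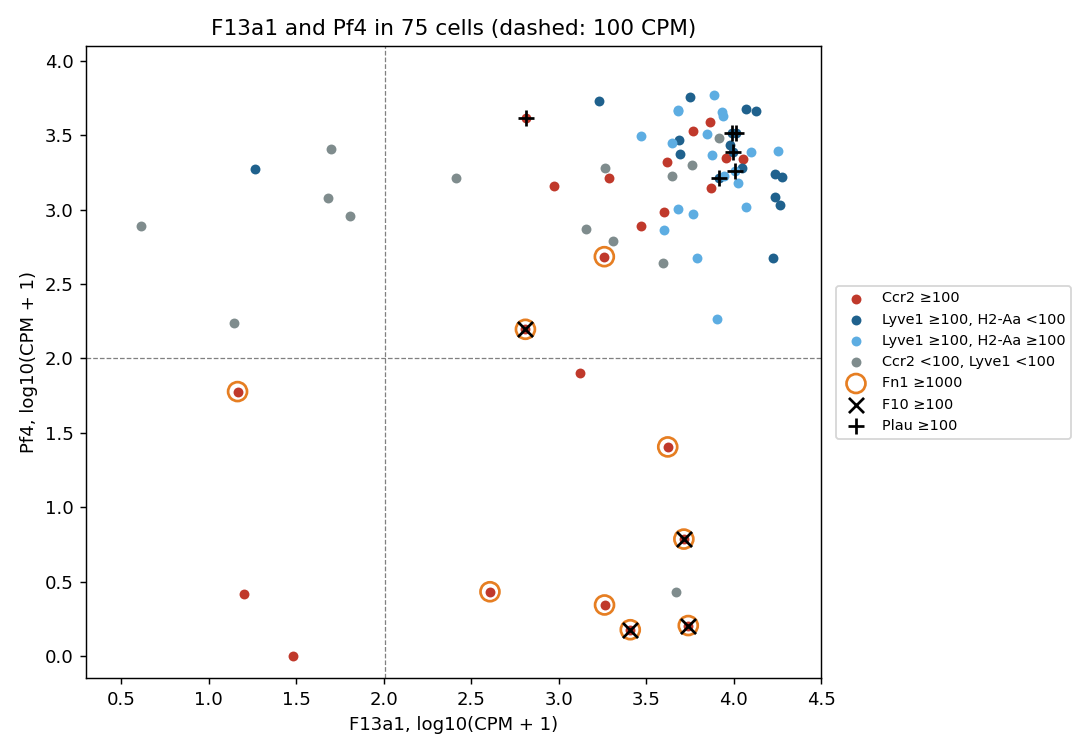
Pf4 on the y axis against F13a1 on the x axis in 75 cells, both as log10(CPM + 1), with points coloured by range, dashed lines at 100 CPM, rings for Fn1 at 1000 CPM, crosses for F10 at 100 CPM and plus signs for Plau at 100 CPM. The 9 ringed cells are all of the Ccr2 range, 3 of the 4 cells with F10 lie below the Pf4 line, and all 6 cells with Plau lie above both lines.

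F10 was held by 4 cells, all in the Ccr2 range. It read 758.2 CPM in transcriptome 57, 606 in transcriptome 27, 351.2 in transcriptome 54 and 247.3 in transcriptome 73, or an estimated 1612, 1019, 915 and 241 reads. The 7 other cells above 0 held 0.2 to 0.6 CPM, an estimated 1 read each, and 64 cells were at 0. A level of 100 CPM was thus reached in 5.33% of the cells (exact 95% interval 1.47 to 13.1%), and no value lay between 0.6 and 247.3 CPM. In the Ccr2 range the share was 4 of 23 cells, or 17.4% (4.95 to 38.8%). Among the 52 cells outside it, 0 reached 10 CPM. Taken as up to 3 cells, this allows a share of up to 5.77%, and split over the other 3 ranges 16.7, 15 and 21.4%. The exact 95% interval for these 52 cells was 0 to 6.85% at 10 and at 100 CPM, which overlaps that of the Ccr2 range. Its upper limits in the other 3 ranges were 18.5, 16.8 and 23.2%. All cells are 1 sample, so the shares were not tested against each other. Because 7 of the 11 cells above 0 held a single read, the rho values of F10 with other genes or scores describe few cells.

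The 4 cells had much Ccr2, H2-Aa and Fn1 and little Lyve1, and differed widely in other transcripts. Ccr2 stood at 5159.4, 5541, 2659.4 and 3230 CPM in the order given, and H2-Aa between 11742.1 and 16094.3 CPM. Lyve1 stayed between 1.8 and 6.9 CPM. Fn1, which encodes fibronectin, a matrix protein that factor XIII links to fibrin, read 3151.9, 4160.1, 7428 and 2056.2 CPM. It reached 1000 CPM in 9 cells of the 75, all in the Ccr2 range, and these included all 4 with F10. F13a1 was present in each, at 2562.5, 5498.8, 644.1 and 5188.7 CPM, whereas Pf4 stood at 0.5, 0.6, 155.8 and 5.1 CPM. Fos, an immediate early gene, read 0.9, 2634.6, 983.8 and 4122.7 CPM, and Mrc1 ranged from 385.8 to 2982.6 CPM. By the monocyte-derived score, which holds Ccr2 and Fn1, the 4 cells ranked 4, 10, 2 and 8 of 75 from the top, by the tissue-resident score, which holds Lyve1, 71, 63, 65 and 70, and by the inflammatory score 39, 70, 68 and 7. All 4 were among the 38 cells with more genes detected, with 3314 to 4147 genes, and rho of F10 with genes above 0 was 0.36. The part of depth in the detection of F10 was not tested.

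Beside Fn1 (rho 0.46) and Plaur (0.45), the genes most like F10 were Mysm1, a histone deubiquitinase (0.47), the small nucleolar RNA U3 (0.46) and Abcf2 (0.44). These ranks rest on the 11 cells above 0, and ranked by Pearson's r 1 of the 5 genes was named again.

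Plau was above 0 in 47 of 75 cells (62.7%, exact 95% interval 50.7 to 73.6%), yet only 13 reached 10 CPM and 6 reached 100 CPM (8.00%). The 6 cells read 1091 CPM in transcriptome 20, 971.7 in transcriptome 49, 646.4 in transcriptome 42, 361.3 in transcriptome 77, 177.3 in transcriptome 41 and 172.5 in transcriptome 47. The first 4 had Lyve1 only, transcriptome 41 had Lyve1 and H2-Aa, and transcriptome 47 was in the Ccr2 range with 129 CPM of Ccr2, close to the limit, and 3981.7 CPM of Lyve1. Lyve1 was thus at 100 CPM in all 6, beside 45 of all 75 cells. By range the mean was 172 ± 356 CPM with Lyve1 only, 13.4 ± 39.7 with Lyve1 and H2-Aa, 10.748 ± 35.9 in the Ccr2 range and 2.79 ± 6.51 with neither, each SD above its mean. The medians, in the same order, were 1.0, 0.5, 0.4 and 0 CPM, so the means differed through a few cells. Plau was above 0 in 15 of 18, 13 of 20, 15 of 23 and 4 of 14 cells in that order. It was at 10 CPM in 4, 3, 4 and 2 of them. The Lyve1-only range held 84.8% of the summed CPM of Plau in 24% of the cells.

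In these 6 cells F13a1 read between 646.8 and 10337.2 CPM and Pf4 between 1636.2 and 4136.7 CPM. The lowest F13a1 was that of transcriptome 47, and the other 5 cells held 8290.9 CPM or more. No cell had both F10 and Plau at 100 CPM, but only 4 and 6 of 75 cells reached it, so nothing is read from this. As with F10, the cells were rich in genes: 5 of the 6 were among the 38 with more genes detected, and in the Lyve1-only range the mean of Plau was 386 CPM in cells with more genes and 0.81 CPM in those with fewer. The part of depth in this was not tested. The genes most like Plau were Il2rg, the common cytokine receptor chain (0.41), Ifi27l1 (0.39), Srgap2 (0.38), Cct3, a subunit of a chaperonin (0.38), and Sord, sorbitol dehydrogenase (0.37), of which 1 was named again by Pearson's r.

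Plaur, which encodes the receptor of urokinase, had its highest mean in the Ccr2 range. Its mean was 254 CPM in the Ccr2 range, 67.8 with Lyve1 only, 19.3 with Lyve1 and H2-Aa and 5.26 with neither. Of 10 cells at 100 CPM, 7 were in the Ccr2 range. Plaur was at 100 CPM in 2 of the 6 cells with Plau at that level, beside 10 of all 75 cells. The 2 were transcriptome 20 with 192.6 CPM of Plaur and transcriptome 77 with 1012.5 CPM, and rho between the genes was -0.11. Among the 4 cells with F10, Plaur read 412, 27.4, 0.8 and 1270.3 CPM.

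Other genes of clotting and clot dissolution were taken from lists. Of 26 coagulation factors and cofactors, 10 had values. Of these, 4 were above 0 and 2 were at 10 CPM in 50% of cells or more, against 23.9% and 8.88% of all genes. The 4 work in the making or secretion of clotting proteins and of many others: the protein disulfide isomerases Pdia3 (828 ± 917 CPM, 74 cells above 0) and P4hb (438 ± 820 CPM, 61 cells), the vitamin K reductase Vkorc1 (169 ± 309 CPM, 45 cells) and Mcfd2, part of the cargo receptor for factors V and VIII (93.6 ± 243 CPM, 40 cells). None of the 10 had a rho of at least 0.3 with the tissue-resident score, 1 was at -0.3 or lower, against 2.12% of genes, and the median was -0.11. That gene was Furin, a proprotein convertase chosen after its values were seen, at -0.44. Of 12 anticoagulants 4 had values, led by Anxa5, which binds phosphatidylserine (932 ± 962 CPM, 74 cells), and Pros1, protein S (148 ± 423 CPM, 48 cells), and none reached 0.3 in size with the tissue-resident or the monocyte-derived score.

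The fibrinolysis genes beside Plau went with the monocyte-derived score. Of 15 listed, 5 had values, and 4 of these had a rho of at least 0.3 with that score, against 2.6% of all genes: Plaur (0.50), Anxa2 (0.45) and S100a10 (0.44), whose products form a plasminogen-binding complex at the cell surface, and the glycolytic enzyme Eno1, which also binds plasminogen (0.33). Lrp1, a receptor that clears protease complexes, stood at 0.14. Anxa2 averaged 891 ± 1444 CPM, S100a10 313 ± 402 and Eno1 196 ± 280. The score itself had a rho of 0.25 with the number of genes above 0. In the 38 cells with more genes 4 of the 5 reached 0.3, and in the 37 with fewer genes 1 did.

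A list of 12 genes held 10 receptors for thrombin and platelet agonists and the enzymes Tbxas1 and Ptgs1, and 5 of them had values, 3 receptors and both enzymes. Ptafr, the receptor for platelet-activating factor, was the most abundant at 1914 ± 1609 CPM, above 0 in 73 cells, with a rho of 0.37 with the tissue-resident score. P2ry12, an ADP receptor of platelets and of microglia, averaged 143 ± 366 CPM with a rho of 0.36. Ptgir, the prostacyclin receptor, named after its values were seen, ran the other way with -0.34, and 0.40 with the monocyte-derived score, from 11 cells above 0. Tbxas1, thromboxane synthase (399 ± 716 CPM, 71 cells), and Ptgs1, cyclooxygenase 1 (259 ± 584 CPM, 49 cells), stayed below 0.3 in size.

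**Figure D4:**
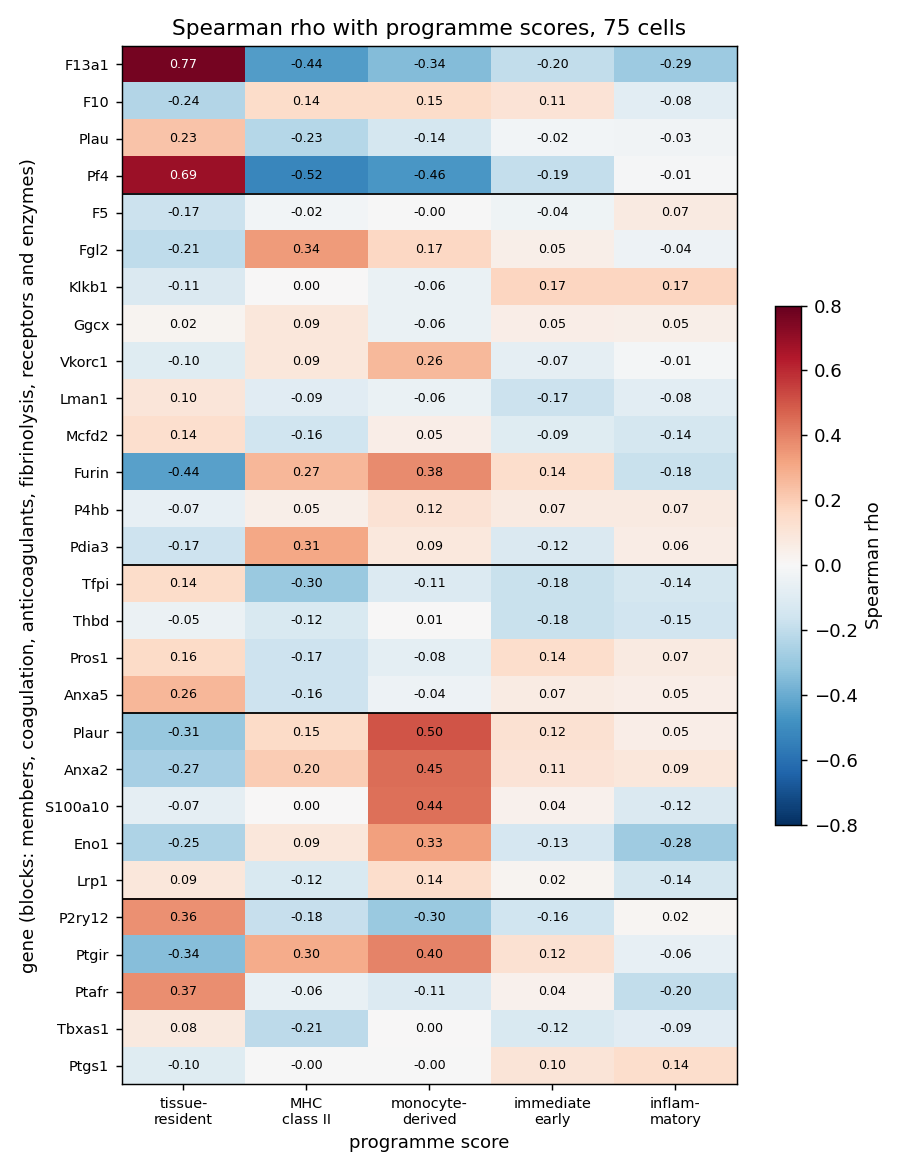
Spearman's rho over 75 cells of each member and each listed gene with values (y axis, in blocks of members, coagulation, anticoagulants, fibrinolysis, and receptors with 2 enzymes) with 5 programme scores (x axis); red is positive and blue negative. F13a1 and Pf4 are the reddest with the tissue-resident score, at 0.77 and 0.69, while Plaur, Anxa2 and S100a10 are red with the monocyte-derived score, at 0.50, 0.45 and 0.44.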

How the data were processed

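The authors deposited 1 table of CPM values (read counts scaled to a fixed total per library) for 9235 genes in 76 libraries of single cells. Alignment and counting tools in the submitters' processing notes are STAR 2.3.0 and HTSeq 0.6.0, with mm9 as the build; which annotation was used is not stated there. Per the labels' protocols, cDNA was amplified with SMARTer and libraries were made with Nextera XT, so no molecular identifiers and no strand were kept. Every gene was above 0 in at least 6 libraries, and 45.5% of values above 0 were below 10 CPM.

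The members and the gene lists were chosen with earlier results of these data known. Depth was estimated from the CPM step of 1 read, and a test on simulated libraries recovered 7 of 8 depths within 1%. Small steps are hard to resolve in rounded values, so the deepest libraries may hold more reads than estimated. The values are not counts and there is 1 sample, so no test was run. Scores are means of standardised log2(CPM + 1) over list genes above 0 in at least 8 cells, without the members, with 16 genes for the tissue-resident, 10 for the MHC class II, 9 for the monocyte-derived, 23 for the immediate early and heat shock and 12 for the inflammatory score. Shares have exact 95% Clopper-Pearson intervals, and a share of 0 allows up to 3 cells. A ratio was called at 2-fold and a rho at 0.3. Named genes are the members, the range markers, the 4 genes of each list above 0 in the most cells, list genes above 0 in at least 50% of cells, and the 5 genes most like each member. Alternatives changed the marker threshold, the detection limit, the depth by thinning to 250000 reads, the cells with fewer or more genes, and the correlation. Lengths are from GENCODE M21 transcripts and promoters from RefSeq (GRCm38.p6), another build than mm9, so neither was tied to read positions. Python 3.11.15, pandas 2.3.3 and scipy 1.17.1 were used.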

Additional observations from a re-analysis of the deposited data

How the results depend on the processing

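Of 444 values recomputed under other settings, 405 were counted as unchanged. Ratios were counted so when they kept their direction and their side of the 2-fold mark. For means a shift below the SD over cells was enough, which is a spread and not an error, so the count does not show that means were stable. In cells with fewer genes detected, Plau with Lyve1 only went from 171.8 to 0.81 CPM and still counted as unchanged. The same held for F10 in the Ccr2 range, which went from 85.4 to 0 CPM. The share of cells above 0 depended on the detection limit. For F10 it fell to 5.33% at 10 CPM, with values below 10 CPM set to 0 and after thinning to 250000 reads, for Plau to 17.3% at 10 CPM and 36.0% after thinning, and for Pf4 to 89.3% at 10 CPM. With a marker threshold of 1000 CPM, 36 cells had neither marker, with a mean of 5283 CPM of F13a1 and 30.0 CPM of Plau, and the ratio of cells with Lyve1 only over them was 1.92 for F13a1 and 1.32 for Pf4. At 10 CPM, the ratios over the Ccr2 range were 1.91 and 1.46 for F13a1, and 1.79 for Pf4 in cells with Lyve1 and H2-Aa, against 1.72 at 1000 CPM. By genes detected, the ratio of Lyve1 only over Lyve1 and H2-Aa turned to 0.978 for F13a1 in the 38 cells with more genes and to 0.817 for Pf4 in the 37 with fewer, and that of Lyve1 only over neither for Pf4 was 1.52 with fewer genes.

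Pearson's r with the tissue-resident score was 0.635 for F13a1 and 0.797 for Pf4, and with the monocyte-derived score 0.440 for F10 and -0.651 for Pf4. With fewer genes, F10 had a rho of 0.0260 with the tissue-resident, -0.106 with the MHC class II and -0.315 with the monocyte-derived score and -0.0266 with Pf4. Among those cells F10 was above 0 only in transcriptomes 22 and 84, at an estimated 1 read each. No cell with F10 at 100 CPM was among them, so nothing is read from these values. F13a1 reached -0.545 with the monocyte-derived score in cells with more genes. With the immediate early score, F13a1 stood at 0.0849 with fewer and -0.501 with more genes, and Plau at 0.368 and -0.308. The fibrinolysis count was 1 with fewer genes. The causes were not tested. The Ccr2 range without its Lyve1 cells and the fibrinolysis counts were added after seeing the data. The range with neither marker held 1 cell with more genes, so no ratio was taken there. No paired analysis was possible because there is 1 group and the result comes from no test.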

Other observations

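Single cells departed from their range in the level of F13a1 or Pf4. Transcriptome 52, in the range with Lyve1 only, held 17.3 CPM of F13a1 beside 1885.7 CPM of Pf4, while the 17 other cells of the range had at least 1000 CPM of F13a1. Transcriptome 66, with neither Ccr2 nor Lyve1 at 100 CPM, held 4651.6 CPM of F13a1 and 1.7 CPM of Pf4, the only 1 of the 14 cells in that range under 100 CPM of Pf4.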
